A study of Mus musculus with 20 samples.

Results

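Fragments of the mRNAs of 8 glucocorticoid response genes were followed in extracellular vesicles of the mouse epididymis after stress in early life. The genes were the glucocorticoid receptor Nr3c1 and 7 genes widely used as readouts of its activity, Fkbp5, Tsc22d3, Per1, Zbtb16, Sgk1, Dusp1 and Klf9. They were picked by symbol and transcript type, so that 8 of 8 were found among the 18357 protein-coding features of one deposited table and among the 16649 of the other. The tables listed 72034 and 59035 features in all.

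The vesicles were cauda epididymosomes, which the distal epididymis sheds into its lumen, from male mice aged 9 months, and their small RNA was sequenced. The 5 Control males came from litters left alone, and the 5 MSUS males from litters whose pups were separated from their mothers at unpredictable times for 3 h a day in the first 2 weeks (14 days) of life, while the dams were stressed by forced swim or restraint. Vesicles were pelleted at 120000 rcf for 2 h from the fluid left after sperm swim-up, and the labels give no strain and do not say which males were littermates. Each of the 10 libraries, 1 per animal, was run 2 times on the sequencer, in one run after selecting inserts of miRNA size, which made 20 samples. Control animals were numbered 3, 5, 7, 9 and 11 and MSUS animals 2, 4, 6, 8 and 14, and values below are listed in that order.

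Glucocorticoids are adrenal steroid hormones whose release rises under stress. They cross the cell membrane and bind the glucocorticoid receptor, which then leaves its cytoplasmic chaperone complex, enters the nucleus and binds DNA at a short palindromic motif, the glucocorticoid response element, near its target genes. Several targets damp the response in turn: FKBP5 lowers the affinity of the receptor for hormone, GILZ (the product of Tsc22d3) restrains inflammatory transcription factors, and DUSP1 switches off MAP kinases.

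The response element was searched for in the promoters of the genes, taken from RefSeq on GRCm38.p6 as windows from 250 bases before to 50 bases after each annotated start. Windows of 6 of the 8 genes are reported, 14 in all. The receptor gene Nr3c1 was left out of this search by choice, and no window was found for Zbtb16. The motif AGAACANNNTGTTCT, which reads alike on both strands, occurred in 3 of the 32851 mouse promoters (0.00913%), and 1 of these was a promoter of Sgk1. Either arm of it alone, AGAACA or TGTTCT, occurred in 4 of the 14 windows, 3 of Sgk1 and 1 of Tsc22d3, and in 19.0% of all promoters. The genes differed in their number of windows, and Sgk1, which had the most, had the most places for a match. The first sequence shows the Sgk1 window with the element, and the second that of Klf9, whose fragments had the smallest p among the 8 genes and whose window held no match. Capitals mark the arms on either strand, and the full element of Sgk1 begins at base 62 of its window. A match describes the letters only, and no match in this window says nothing about sites elsewhere.
Sgk1 promoter, chr10:21993640-21993939, plus strand: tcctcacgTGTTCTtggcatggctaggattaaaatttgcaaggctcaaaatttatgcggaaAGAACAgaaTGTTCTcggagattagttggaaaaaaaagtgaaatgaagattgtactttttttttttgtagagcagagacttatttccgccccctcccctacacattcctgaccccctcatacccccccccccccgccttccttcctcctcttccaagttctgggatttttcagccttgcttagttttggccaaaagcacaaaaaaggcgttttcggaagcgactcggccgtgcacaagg
Klf9 promoter, chr19:23140976-23141275, plus strand: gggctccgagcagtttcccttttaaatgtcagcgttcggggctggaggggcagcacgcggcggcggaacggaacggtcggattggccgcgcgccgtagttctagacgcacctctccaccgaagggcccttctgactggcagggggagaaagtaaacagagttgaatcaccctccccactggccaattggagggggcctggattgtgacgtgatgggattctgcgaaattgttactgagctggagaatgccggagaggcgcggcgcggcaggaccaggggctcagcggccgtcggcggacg

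The tables held estimated counts, and are called here by depth. The deeper one, labelled as with size selection, had 1872084 to 3647956 counts per library, and the shallower one, labelled as without, 215231 to 871461. The labels go against the contents, since mature miRNAs took 10.9 to 17.0% of counts in the deeper table and 52.4 to 72.2% in the shallower one; each comparison of MSUS with Control was made within a table. Levels are given as CPM, counts per 1000000 of a library scaled by TMM, a factor that sets the bulk of features level between libraries. Protein-coding features, the fragments of mRNA, took 23.7% ± 5.02 (SD, n = 5) of counts in Control and 15.4% ± 6.42 (SD, n = 5) in MSUS libraries of the deeper table (−8.31 percentage points, exact two-sided permutation p = 0.0556). They took 10.5% ± 1.73 and 7.48% ± 1.40 in the shallower table (−3.04 points, exact permutation p = 0.0159, where 0.00794 is the smallest p that 5 against 5 allows). Mean shares were lower in MSUS in both, and the scaling decides whether they enter the fold change of an mRNA. With library size as the only scale the log2 fold changes of the tested features had a median of −0.58 in the deeper table, in place of −0.001. Whether a vesicle carried less of an mRNA or fewer vesicles carried it cannot be told apart in such bulk RNA.

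All 8 mRNAs were detected in every library of the deeper table. Together they took 0.0971 to 0.120% of its protein-coding counts. Per kilobase of exon and per 1000000 protein-coding counts, Fkbp5 was highest at 85.4 ± 7.63 (SD, n = 10 libraries), followed by Sgk1 at 53.4 ± 10.5. These levels stood at percentiles 94.5 and 91.1 of 12781 protein-coding genes with a length and at least 10 counts. Tsc22d3 followed at 16.5 ± 4.85, Per1 at 13.9 ± 4.22, Nr3c1 at 11.8 ± 2.80, Klf9 at 11.4 ± 2.54, Zbtb16 at 8.50 ± 2.12 and Dusp1 at 6.96 ± 2.10. Fkbp5 lay above Sgk1 in 10 of 10 libraries, although their ranges overlapped, and the range of Sgk1 did not overlap that of Tsc22d3. From Tsc22d3 down, the ranges of each pair of neighbours overlapped. The shallower table put Fkbp5 (111) and Sgk1 (45.3) highest too, Fkbp5 again above Sgk1 in 10 of 10 libraries, and the means of the other 6 genes lay between 6.62 and 20.7. Ranges of Sgk1 and of the genes below it overlapped there, Sgk1 lying above Per1, the next by mean, in 9 of 10 libraries.

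**Figure D1:**
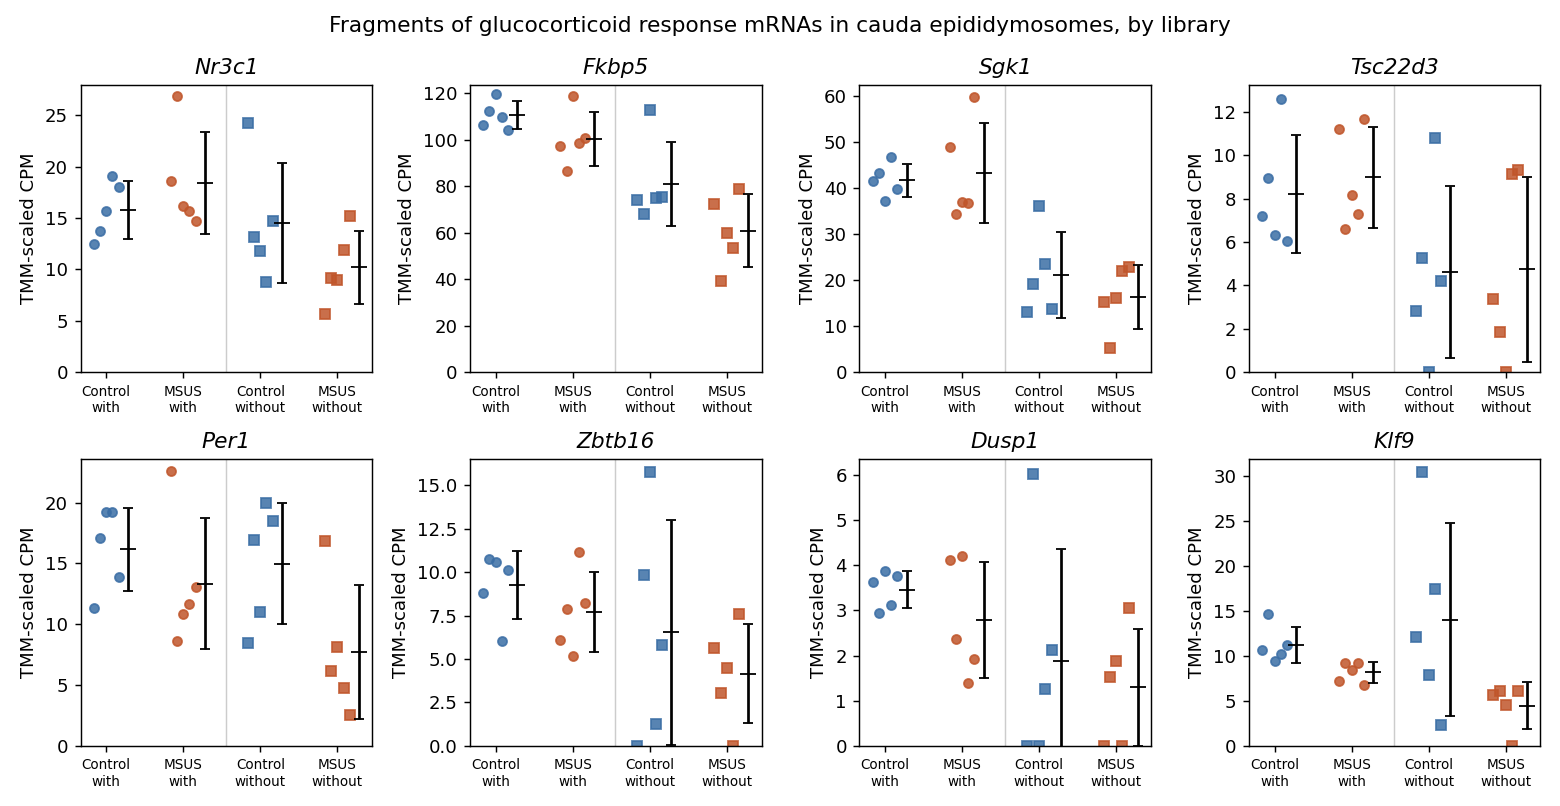
TMM-scaled CPM of each glucocorticoid response mRNA in every library; circles show the deeper table (with), squares the shallower one (without), blue Control, orange MSUS, and black bars the mean ± SD of 5 libraries. The 5 MSUS circles of Klf9, between 6.74 and 9.25, sit below all Control circles, between 9.42 and 14.7, while the circles of the other 7 genes overlap between the groups.

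Between MSUS and Control, edgeR's quasi-likelihood test called 0 of the 7 members tested in the deeper table at an adjusted threshold of 0.05, and 0% (0 of 10998) of all tested features. The unadjusted p was under 0.05 for 1 of the 7 members, Klf9, and for 5.77% (635) of all features, 2.32% (255) of them lower in MSUS as Klf9 was. Dusp1, the eighth, fell under the filter on low counts. The members' log2 fold changes were positive for 3 and negative for 4, with a median of −0.14 beside −0.03 over the 7339 tested protein-coding features. DESeq2 called 33 features and voom 0. DESeq2 gave an adjusted p for 1 of the 7 members, Fkbp5 (0.441), and left those of the other 6 undefined, so that no DESeq2 call could be made for them. The filter left 1 member of the shallower table, Fkbp5, which did not pass, as 0% (0 of 1075) of all features did by edgeR and 0 by DESeq2 or voom, while 7.91% (85) had an unadjusted edgeR p under 0.05.

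Nr3c1 encodes the receptor itself, and lies on the minus strand of chromosome 18. In the deeper table its fragments stood at 12.5, 13.7, 15.7, 19.1 and 18.0 CPM in the Control and at 18.6, 26.9, 16.1, 15.7 and 14.7 CPM in the MSUS libraries. The groups overlapped, and MSUS 2 lay within the Control range while MSUS 4 alone lay above it. The means were 15.8 ± 2.78 and 18.4 ± 4.95 CPM (SD, n = 5 each), a log2 fold change of +0.15 (SE 0.18, 95% interval −0.23 to 0.52, edgeR adjusted p = 0.974). It became +0.0037 without MSUS 4, +0.25 without MSUS 14 and +0.46 without Control 9, Control 11 and MSUS 14, the 3 libraries with the most protein-coding counts (edgeR adjusted p = 0.507). Nr3c1 had, in the shallower table, 1 to 12.7 counts per library, and 14.5 ± 5.87 against 10.2 ± 3.59 CPM (log2 ratio of means −0.51, exact permutation p = 0.214). That ratio was −0.26 without Control 3 and −0.76 by library size only (exact permutation p = 0.0476). Without Control 9, Control 11 and MSUS 14 it was −0.94 (exact permutation p = 0.0286, the smallest that the libraries left allow). Tested protein-coding features of this table had a median log2 fold change of −0.36 without those 3 libraries and of −0.51 by library size only. With TMM over protein-coding features only, the ratio was −0.29 (exact permutation p = 0.452). Under TMM the receptor's sign thus differed between the tables, most so without those 3 libraries. By library size only it was negative in both, at −0.45 in the deeper table.

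Fkbp5 encodes the co-chaperone of the receptor complex, and is among the most used readouts of glucocorticoid action. It lies on chromosome 17 (28399094 to 28517527, minus strand, GRCm38). In the deeper table it stood at 106, 113, 119.6, 110.0 and 104 CPM in the Control and at 97.3, 86.8, 119, 98.5 and 101 CPM in the MSUS libraries. All but MSUS 6 lay below the lowest Control library. The means were 111 ± 5.99 and 101 ± 11.7 CPM (SD, n = 5 each), with a log2 fold change of −0.14 (SE 0.11, 95% interval −0.38 to 0.11, edgeR adjusted p = 0.926). As a fold this interval runs from 0.769 to 1.08, the narrowest among the 7 tested members, on 106 to 658 counts per library.

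The shallower table gave Fkbp5 24.4, 20.8, 28.7, 60.2 and 65.1 counts in the Control and 12.9, 12.8, 26.7, 9 and 51.9 counts in the MSUS libraries. Scaled, these were 74.0, 68.2, 112.8, 75.01 and 75.4 CPM against 72.2, 39.1, 60.1, 53.6 and 79.0 CPM. All 5 MSUS libraries lay below the Control mean, which was raised by Control 7, and the groups overlapped. The means were 81.1 ± 18.0 and 60.8 ± 15.7 CPM (SD, n = 5 each), a log2 fold change of −0.37 (SE 0.24, 95% interval −0.88 to 0.14, edgeR adjusted p = 0.593). With TMM over protein-coding features only it was −0.15, since tested protein-coding features as a whole had a median of −0.20 in this table. Without Control 9, Control 11 and MSUS 14, the 3 libraries with the most protein-coding counts, it was −0.65. Tested protein-coding features then had a median of −0.36.

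Sgk1 encodes a serine/threonine kinase that acts on ion channels and transporters of epithelia, and 1 of its promoter windows held the full response element shown above. It lies on chromosome 10 (21882184 to 21999903, plus strand). It stood at 41.6, 43.2, 37.1, 46.7 and 39.8 CPM in the Control and at 48.9, 34.3, 37.0, 36.7 and 59.7 CPM in the MSUS libraries of the deeper table. MSUS 2 and MSUS 14 lay above every Control library and the other 3 MSUS libraries below every Control library, so that the MSUS values enclosed the Control range. The means were nearly level, 41.7 ± 3.60 and 43.3 ± 10.8 CPM (SD, n = 5 each; log2 fold change +0.09, SE 0.15, 95% interval −0.22 to 0.41, edgeR adjusted p = 0.989), and the sign turned to −0.07 without MSUS 14. Its shallower reading gave Sgk1 1.73 to 18.8 counts per library, 21.1 ± 9.42 against 16.3 ± 7.04 CPM (log2 ratio −0.37, exact permutation p = 0.437). The ratio was −0.12 without Control 7 and −0.17 without MSUS 4. With TMM over protein-coding features only it was −0.11 (exact permutation p = 0.802).

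Tsc22d3 encodes GILZ, a leucine zipper protein that mediates part of the anti-inflammatory action of glucocorticoids, and lies on chromosome X (140539528 to 140600659, minus strand). Its values in the deeper table were 7.18, 8.97, 6.30, 12.6 and 6.03 CPM in the Control and 11.2, 6.58, 8.15, 7.28 and 11.7 CPM in the MSUS libraries. Every MSUS value lay within the Control range. The log2 fold change was +0.19 (SE 0.24, 95% interval −0.32 to 0.71, edgeR adjusted p = 0.974), and it was +0.52 without Control 9 and +0.05 without MSUS 14 or Control 11. The shallower reading held 0 to 8.67 counts per library (log2 ratio +0.04, exact permutation p = 0.968). Of all counts on Tsc22d3 in the deeper table, 62.6% were assigned to its protein-coding transcripts and the rest to retained-intron and processed transcripts, so that its level depends on how shared reads were split.

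Per1 encodes a repressor of the circadian clock that glucocorticoids induce within the daily cycle, and lies on chromosome 11 (69095217 to 69109960, plus strand). In the deeper table it stood at 11.4, 17.1, 19.2, 19.2 and 13.9 CPM in the Control and at 22.6, 8.59, 10.8, 11.7 and 13.0 CPM in the MSUS libraries. MSUS 2 had the highest value of all 10 libraries and the other 4 MSUS libraries lay below the Control mean. The log2 fold change was −0.21 (SE 0.23, 95% interval −0.69 to 0.27, edgeR adjusted p = 0.964), and was −0.51 without MSUS 2 and −0.10 without MSUS 4. The sources used here do not give the time of day at which tissue was taken.

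The shallower table gave Per1 2.80, 5.15, 2.80, 16 and 15.9 counts in the Control and 3, 2, 3.60, 0.800 and 1.67 counts in the MSUS libraries. Control 9 and Control 11, among the deepest libraries, held most of its counts. Scaled to CPM the values were 8.49, 16.9, 11, 19.95 and 18.5 against 16.9, 6.13, 8.11, 4.76 and 2.54, and only MSUS 2 lay within the Control range. The means were 14.97 ± 4.96 and 7.68 ± 5.52 CPM (SD, n = 5 each), a log2 ratio of −0.96 with an unadjusted exact two-sided permutation p of 0.0476. That p rose above 0.05 when one of the libraries MSUS 4, 6, 8 and 14 or Control 5, 9 and 11 was left out (up to 0.135) and with TMM over protein-coding features (log2 ratio −0.67, exact permutation p = 0.214). Without MSUS 2 the log2 ratio was −1.49 (exact permutation p = 0.0159), and without Control 9, Control 11 and MSUS 14 it was −0.52 (exact permutation p = 0.343). In a fit of all features without the filter its edgeR adjusted p was 0.555.

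Zbtb16 encodes PLZF, a zinc finger repressor needed for renewal of spermatogonia and induced by glucocorticoids in many tissues. It lies on chromosome 9 (48654297 to 48836222, minus strand). The deeper table gave 8.78, 10.8, 10.6, 6.06 and 10.1 CPM in the Control and 6.07, 7.91, 5.16, 11.1 and 8.24 CPM in the MSUS libraries. Control 9 and MSUS 8 ran against the means of their groups, and the values overlapped. The log2 fold change was −0.25 (SE 0.22, 95% interval −0.71 to 0.22, edgeR adjusted p = 0.934) and reached −0.43 without Control 9 and −0.50 without Control 9, Control 11 and MSUS 14 together. Zbtb16 had, in the shallower table, 0 to 5 counts per library (log2 ratio −0.65, exact permutation p = 0.50). The ratio went from −0.031 without Control 7 to −0.99 without MSUS 14. With TMM over protein-coding features only it was −0.43 (exact permutation p = 0.619).

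Dusp1 encodes a phosphatase that inactivates p38 and JNK, and lies on chromosome 17 (26505590 to 26562128, minus strand). It had 1.5 to 18.7 counts per library in the deeper table, at 3.62, 2.94, 3.86, 3.12 and 3.76 CPM in the Control and 4.11, 2.36, 4.19, 1.39 and 1.91 CPM in the MSUS libraries. The MSUS values spread to either side of the Control range (log2 ratio of means −0.31, exact permutation p = 0.286, and from −0.50 without MSUS 6 to −0.13 without MSUS 8). The shallower table held 8 counts of it in all, too few for a comparison. Only 41.8% of the counts on Dusp1 in the deeper table went to its protein-coding transcript, and 58.2% to a retained-intron transcript.

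Klf9 encodes a Krüppel-like zinc finger repressor that glucocorticoids induce directly, and lies on chromosome 19 (23141226 to 23168134, plus strand). All its counts were whole numbers in the deeper table, 23, 30, 24, 61 and 54 in the Control and 19, 13, 13, 10 and 27 in the MSUS libraries. Scaled, they were 10.6, 14.7, 9.42, 10.2 and 11.2 CPM against 7.21, 9.20, 8.39, 9.25 and 6.74 CPM. The groups did not overlap, which held for 0.909% (100) of the 10998 tested features. The nearest values were 9.42 CPM in Control 7 and 9.25 CPM in MSUS 8, which rested on 24 and 10 counts. The means were 11.2 ± 2.04 and 8.16 ± 1.15 CPM (SD, n = 5 each). The log2 fold change was −0.50 (SE 0.16, 95% interval −0.85 to −0.15), and the edgeR quasi-likelihood test gave an unadjusted p of 0.00778, rank 86 of 10998, and an adjusted p of 0.839. Klf9 therefore did not pass the adjusted threshold. Without MSUS 14 the log2 fold change was −0.41 and the unadjusted edgeR p 0.0571. Over all alternatives tried it ran from −1.09 to −0.41, negative in 20 of 20, with edgeR or voom adjusted p from 0.229 to 1.00.

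The shallower table read Klf9 at 4, 9.25, 2, 14 and 2 counts in the Control and at 1, 2, 2, 0 and 4 counts in the MSUS libraries. As CPM these were 12.1, 30.4, 7.87, 17.5 and 2.32 against 5.62, 6.13, 4.51, 0 and 6.09. All 5 MSUS libraries lay below the Control mean, but Control 11 lay below 4 of them. The means were 14.0 ± 10.7 and 4.47 ± 2.58 CPM (SD, n = 5 each), a log2 ratio of −1.65 with an exact permutation p of 0.0794. Leaving out 1 library moved that exact permutation p between 0.00794 (log2 ratio −1.95, without Control 11) and 0.190 (−1.34, without MSUS 8), under 0.05 in 1 of 10 cases. With TMM over protein-coding features only the log2 ratio was −1.43 (exact permutation p = 0.0873). The same libraries were read again here, so that this table repeats the sequencing and not the animals.

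**Figure D2:**
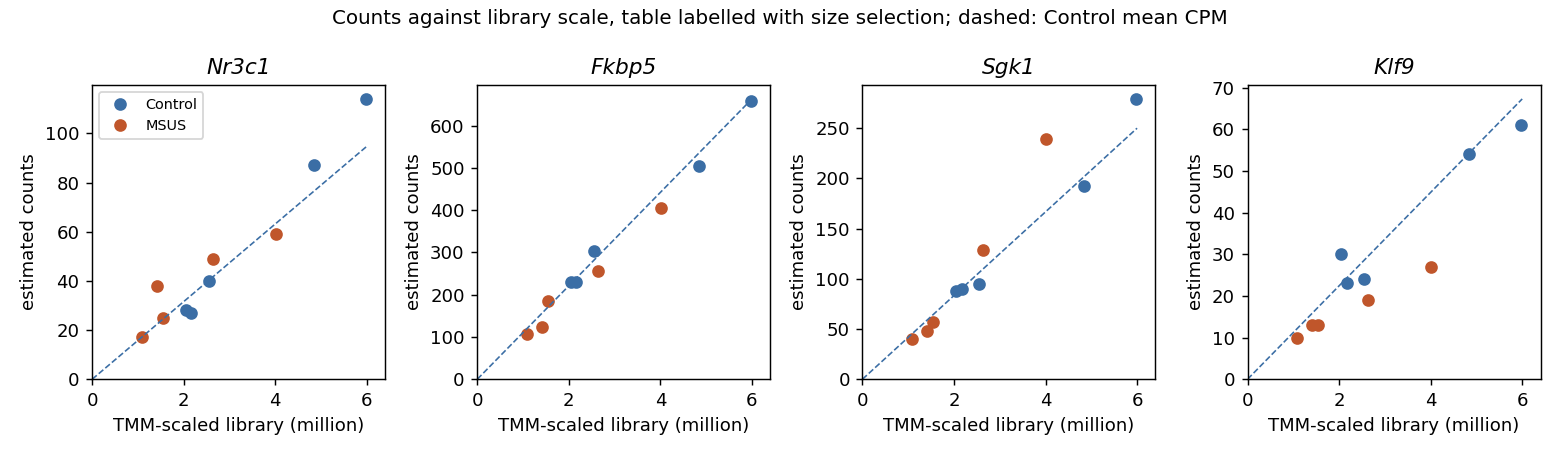
Estimated counts of 4 glucocorticoid response mRNAs against the TMM-scaled library size, 1 point per library of the deeper table, blue Control and orange MSUS; the dashed line is the count that the Control mean CPM predicts. The 5 MSUS points of Klf9 lie below the line, while those of Nr3c1 and Sgk1 lie on both sides of it.

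In the deeper table the scaling bore on all 7 tested members alike. By library size alone, without TMM, all 7 tested members had negative log2 fold changes, from −0.40 for Tsc22d3 to −1.09 for Klf9, as most features did (median −0.58). This scaling shifts features together, so the turned signs are no separate observation on the members. Klf9 was at −0.48 under TMM over protein-coding features, at −0.50 with RLE size factors and at −0.50 with all transcript types summed. The part of the protein-coding share of counts, given above, in these fold changes was not tested beyond the scalings shown.

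**Figure D3:**
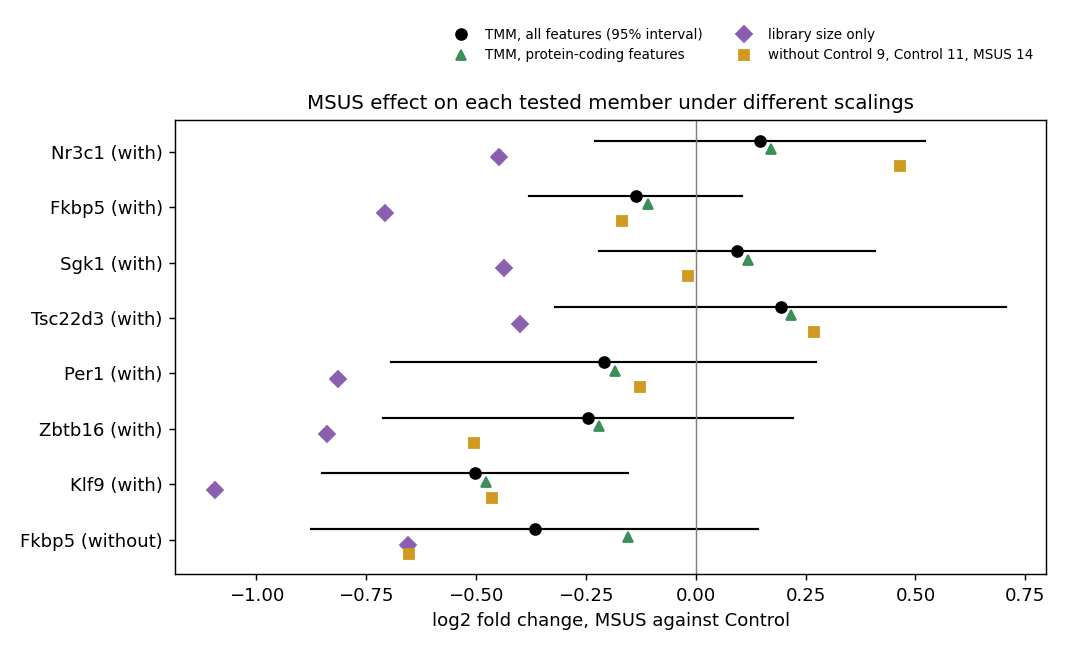
Log2 fold change of MSUS against Control for the 7 members tested in the deeper table (with) and for Fkbp5 in the shallower one (without); black circles with lines give the value and its 95% interval, other symbols the value under another scaling or without 3 libraries. Of the 7 intervals of the deeper table that of Klf9 alone (−0.85 to −0.15) leaves out 0, and every purple diamond (library size only) lies left of the circle.

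The difference of the MSUS effect between the tables was tested as an interaction over both. It passed for 0 of the 7 members that could be fitted and for 0% (0 of 8109) of features by edgeR after adjustment, while 2.75% (223) had an unadjusted p under 0.05. Per1 had the largest difference, +1.02 (SE 0.54, edgeR adjusted p = 1.00), deeper minus shallower. That of Klf9 was +0.72 (SE 0.61) and that of Nr3c1 +0.39 (SE 0.42). This fit took both readings of a library as separate samples. With the animal as block the differences were +0.90 (SE 0.44) for Per1, +0.72 (SE 0.63) for Klf9 and +0.30 (SE 0.43) for Nr3c1.

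How far a member's level repeated between the readings of a library was described over the 10 animals by correlation of log2(CPM + 1). Pearson's r was 0.68 for Fkbp5 (rho 0.42), 0.64 for Per1 (rho 0.61), 0.52 for Tsc22d3 (rho 0.61), 0.41 for Klf9 (rho 0.43), 0.32 for Sgk1 (rho 0.30), 0.05 for Zbtb16 (rho 0.20), −0.10 for Dusp1 (rho −0.19) and −0.63 for Nr3c1 (rho −0.75). Of the 8 relations none passed after Benjamini-Hochberg adjustment, the smallest adjusted permutation p being 0.153 for r and 0.143 for rho (raw 0.0179, Nr3c1). Without the 2 animals farthest from the median, r was −0.10 for Fkbp5, 0.59 for Per1, 0.18 for Tsc22d3, 0.11 for Klf9, 0.36 for Sgk1, −0.04 for Zbtb16, −0.45 for Dusp1 and −0.60 for Nr3c1. Those animals were chosen for each gene by its values in the deeper table, which narrows the range. The lower r of Fkbp5, Tsc22d3 and Klf9 can therefore not be laid to those animals alone. Within groups, as deviations from group means, r was 0.55 for Per1, 0.53 for Fkbp5 and Tsc22d3, 0.36 for Sgk1, 0.02 for Klf9 and Zbtb16, −0.14 for Dusp1 and −0.56 for Nr3c1.

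The rest of the pathway was read from lists of genes in the deeper table. Of 18 chaperones and enzymes that hold the receptor or handle its ligand, 15 were tested and 0 passed, 9 higher and 6 lower in MSUS with a median log2 fold change of +0.02. The heat shock co-chaperone Dnajb1 (−0.20, SE 0.13) and the chaperone Hspa1a (+0.13, SE 0.12) had the smallest p. Hsd11b2, whose enzyme inactivates corticosterone, had no protein-coding feature in the deeper table. Of 12 coregulators of nuclear receptors all were tested and 0 passed, 2 higher and 10 lower with a median of −0.08, led by the chromatin remodeller subunit Arid1a (−0.18, SE 0.12) and the corepressor Ncor1 (−0.16, SE 0.11). Of the chaperones 5 were tested in the shallower table, 1 higher and 4 lower (median −0.16), and 4 of the 5 lay above the median of tested protein-coding features there (−0.20), with Fkbp4 (−0.34, SE 0.23), the co-chaperone that opposes FKBP5, and Hsp90ab1 (−0.16, SE 0.20) first by p, and no coregulator passed the filter.

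Of 33 other glucocorticoid targets, 26 were tested in the deeper table and 0 passed, 15 higher and 11 lower with a median of +0.05. At an unadjusted p under 0.05 stood 2 of the 26, against 5.77% of all features. Gadd45a, a growth arrest gene, went from 5.02 ± 0.709 CPM in Control to 3.06 ± 1.06 CPM in MSUS libraries (SD, n = 5 each; log2 fold change −0.84, SE 0.24, edgeR adjusted p = 0.839). Arl4d, a small GTPase, stood at 21.0 ± 4.27 and 17.1 ± 2.72 CPM (log2 fold change −0.35, SE 0.16, edgeR adjusted p = 0.859). Those tested in the shallower table were the metallothionein Mt1 (−0.23, SE 0.26) and the glutamine synthetase gene Glul (+0.07, SE 0.29).

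Of 16 immediate early genes, which respond to handling as well as to hormones, 8 were tested, 3 higher and 5 lower (median −0.03), and 0 passed. Among them Jun was at +0.46 (SE 0.24) and Egr1 at +0.67 (SE 0.38).

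**Figure D4:**
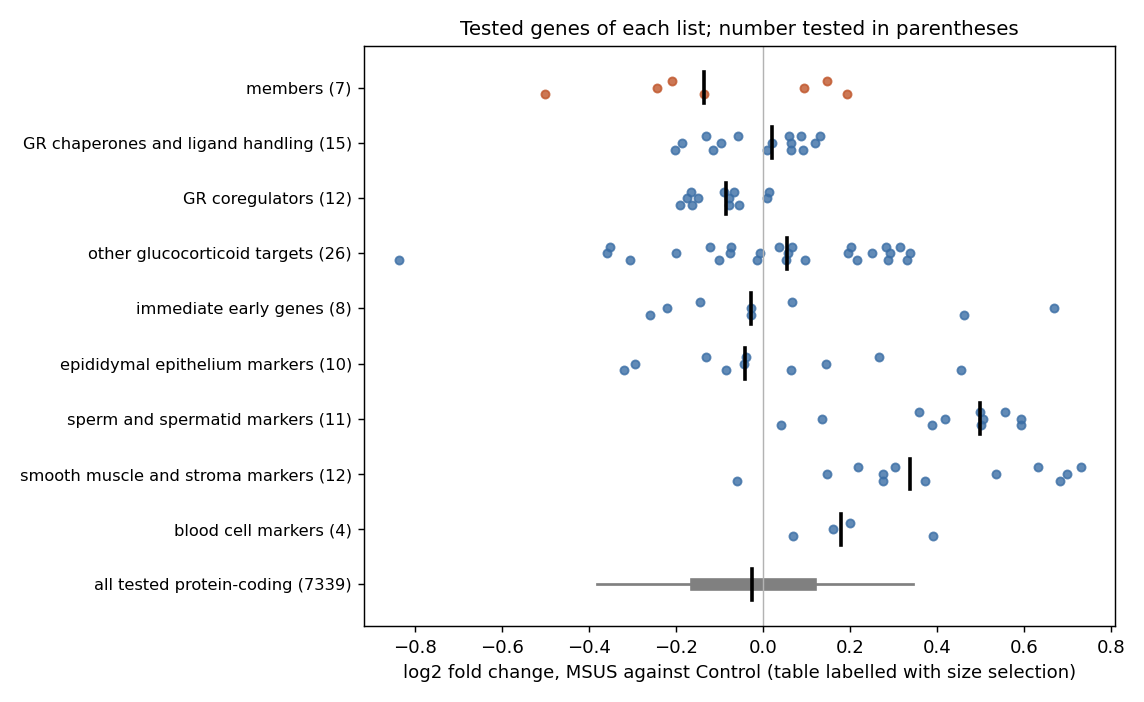
Log2 fold change of MSUS against Control for each tested gene of the members and the 8 lists in the deeper table (1 point per gene; black bars are medians), beside all 7339 tested protein-coding features (thick line 25th to 75th, thin line 5th to 95th percentile). The members (orange) spread from −0.50 to 0.19, and the sperm list, with 11 of 11 points right of 0 and a median of 0.50, lies farthest from the median of all.

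Markers of the cells that could feed the pellet were read in the same libraries. Epididymal epithelium markers summed to 2624 to 3568 CPM in Control and 2347 to 3535 CPM in MSUS libraries. Lcn9 had no protein-coding feature in the deeper table. Of 16 listed markers 10 were tested, 4 higher and 6 lower in MSUS (median −0.04, 1 at an unadjusted edgeR p under 0.05). The water channel Aqp9 was at −0.32 (SE 0.11, edgeR adjusted p = 0.839) and Gpx5 at +0.46 (SE 0.27). Sperm and spermatid markers summed to 262 to 409.9 CPM in Control and 371 to 578 CPM in MSUS libraries. Of 15 listed 11 were tested, and 11 of 11 were higher (median +0.50, 0 passing). The unadjusted edgeR p was under 0.05 for 4 of them, and for 5.77% (635, of which 380 higher) of all 10998 tested features. Smcp, a gene of the mitochondrial sheath of sperm, was at +0.59 (SE 0.14) and Odf1, of the outer dense fibres, at +0.59 (SE 0.17). Smooth muscle and stroma markers summed to 411 to 808 and 535 to 1252 CPM. Of 13 listed 12 were tested and 11 of 12 were higher (median +0.34, 1 at an unadjusted edgeR p under 0.05). Myh11 was at +0.68 (SE 0.30) and Actg2 at +0.73 (SE 0.35). Blood cell markers summed to 96.6 to 169 and 125 to 189.9 CPM. Only 4 of 11 listed were tested, the others falling under the filter. Those 4 were higher (median +0.18), with Lyz2 at +0.39 (SE 0.22) and Csf1r at +0.16 (SE 0.20). No marker list but the epithelial one held a gene without a protein-coding feature, and by edgeR no marker passed after adjustment.

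Sperm markers had positive log2 fold changes in the shallower table too, in 3 of 3 tested (median +0.16). Odf1 was at +0.61 (SE 0.30) and Smcp at +0.16 (SE 0.22). Prm2 was nearly level at +0.04 (SE 0.29), and its mean CPM was slightly lower in MSUS (51.7) than in Control (52.0). Of 7 tested epithelial markers 6 were lower (median −0.28) while 3 lay above the median of protein-coding features, with Cdh1 at −0.48 (SE 0.22) and Aqp9 at −0.49 (SE 0.25). Of tested muscle and stroma markers 1 of 3 was higher, Myh11 at +0.30 (SE 0.34) with Mylk at −0.25 (SE 0.26). The only tested blood marker, Cd74, was at −0.27 (SE 0.22). The part of these markers in the fold changes of the glucocorticoid response genes was not tested.

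The genes whose levels ran most like each member over the 10 libraries of the deeper table were found among 7243 protein-coding features, as a description that shares library, depth and scale with the members. Tsc22d3 ran most like Clic3 (r = 0.96), Gm4070 (0.94) and Ndufa11 (0.93), and Sgk1 most like Hpdl (0.96), Stard5 (0.94) and Nmd3 (0.92). Klf9 ran most like Pdrg1 (0.93), Pank3 (0.90) and Mal2 (0.86), Per1 like Dzip3 (0.93), Bin3 (0.89) and Uba2 (0.89), and Fkbp5 like Plekhm1 (0.92), Scaf1 (0.91) and Rpgrip1l (0.91). Zbtb16 ran like Chfr (0.92), Ccdc127 (0.90) and Mief1 (0.90), and Nr3c1 like Cfap52 (0.89), Atp13a1 (0.88) and Xpnpep1 (0.86). No member was among the 3 nearest genes of another, which says little with 7243 candidates for each. Picked as the highest of that many over 10 libraries, these r are large by selection, and no p was computed for them. Fkbp5 in the shallower table ran most like Gnb1 (0.91), Ctnnd1 (0.88) and Rbm47 (0.86) among 516 features.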

How the data were processed

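The authors deposited 1 table of estimated counts per run. The submitters' processing notes name STAR, edgeR and the build GRCm38, and the sources used here do not say how reads were shared among transcripts. Table columns were matched to samples through the labels. Genes were located with GENCODE vM21, in which no member shared exonic bases with another gene. Estimated counts were rounded, features kept by filterByExpr, and libraries scaled by TMM. MSUS was tested against Control within each table by the robust quasi-likelihood test of edgeR 4.0.16 (R 4.3.3), with Benjamini-Hochberg adjustment over all tested features and a threshold of 0.05. Members under the filter were compared by exact two-sided permutation of CPM, unadjusted. DESeq2 1.42.0 and voom (limma 3.58.1) were alternatives. The fits were tested on simulated data.

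The members and the 8 lists were chosen with earlier results of these data known, and 1 further planned list is not reported here. Named are all members, the 2 genes of each list with the smallest p per table and the 3 features most like each tested member. Prm2 is named for the shallower table as well. Same-numbered samples are the same library, per the labels. Their deviations correlated at 0.0570 to 0.353, and 9 of 10 matched their own best. MSUS 2 did not, at 0.0585 with its own second reading and up to 0.166 with that of another animal. No label ties animals to litters, and the p-values rest on the spread among the animals sequenced.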

Additional observations from a re-analysis of the deposited data

Results flagged for a closer look

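Among 32 groups of 5 values (8 genes, both tables, both conditions), 2 held a library far from the others by Dixon's test, where chance gives about 1 in 20. Fkbp5 stood at 112.8 CPM in Control 7 of the shallower table, against 68.2 to 75.4 CPM in the other Control libraries, and the log2 fold change was −0.25 without it. Klf9 had no count in MSUS 8 of the shallower table (0 CPM), against 4.51 to 6.13 CPM in the other MSUS libraries. Those values rested on 1 to 4 counts, and MSUS 8 had the smallest scaled library of that table (167905). Dixon's test is meant for continuous values, so at such counts this flag does not set the library apart.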

How the results depend on the processing

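The animal as replicate block left 0 features and 0 members with an MSUS effect that differed between the tables, and this was the only comparison fitted with the pairing. By library size only 3 features were called in the deeper table, 48 without a filter, 33 by DESeq2 and 0 to 2 on leaving out 1 library (2 without Control 3). The shallower one gave 1 call by library size only and 2 without Control 9, Control 11 and MSUS 14. None was a member, though DESeq2 gave an adjusted p for only 1 of the 7 tested members. The difference in protein-coding share ran from −10.7 (without MSUS 14, exact permutation p = 0.00794) to −6.32 points (without MSUS 8, exact permutation p = 0.119) in the deeper table on leaving out 1 library, and was −2.73 (exact permutation p = 0.0571) in the shallower one without those 3 libraries. Signs turned by library size only for Nr3c1 (−0.45), Tsc22d3 (−0.40) and Sgk1 (−0.44) in the deeper table, and for Tsc22d3 (−0.45) in the shallower one. Sgk1 was −0.070 without MSUS 14 (−0.070 to 0.17 on leaving out 1 library) and −0.018 without the 3 libraries. With both tables summed, Nr3c1 was +0.11 and Sgk1 +0.074, opposite to the shallower table. Tsc22d3 there was −0.22 without a filter, −0.016 with all transcript types summed, and −0.38 to 0.60 on leaving out 1 library (−0.16, −0.34, −0.08, −0.38 and −0.37 where it turned). Correlations between tables turned to −0.10 (Fkbp5) and −0.038 (Zbtb16) without the 2 farthest animals. The cause was not tested. Depth limits 7 of the 8 members in the shallower table, with at most 18.8 counts per library.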
